A study of Mus musculus with 4 samples.

Results

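The 10 genes described here encode enzymes and transporters of peroxisomal fatty acid oxidation and acyl-CoA thioesterases, which release free fatty acids from coenzyme A. They were chosen by symbol, by a rule that uses no measured value but with earlier results of these data known. The genes are Abcd2, Abcd3, Ehhadh, Hsd17b4, Acaa1a, Acaa1b, Acot1, Acot3, Acot4 and Acot8. All 10 were found among the 24346 gene symbols of the series, and all 10 were above 1 FPKM (fragments scaled to exon length and to the mapped total) in each of the 4 libraries. The livers came from male ob/ob mice, which become obese because they lack leptin, and which were 6 weeks old when the feeding of 4 weeks began. The groups were CD (chow), CD+7KC, WD (western type diet rich in cocoa butter and sucrose) and WD+7KC, where 7KC is 7-ketocholesterol, an oxidized cholesterol added at 0.01%. Cholesterol made up 1% of every diet, and lean or leptin-sufficient mice were not among the groups. Each group had 1 library, and the sources used here do not say whether a library held RNA of 1 mouse or of several. None of the differences below therefore has a replicate check, no p-value is given, and the diet and the mice behind a library cannot be told apart.

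Peroxisomes shorten fatty acids that mitochondria handle poorly, such as very long-chain, branched-chain and dicarboxylic acids and the side chain of bile acid precursors. Acyl-CoA enters through ABCD transporters, is oxidized, is hydrated and dehydrogenated by a bifunctional enzyme, and is cleaved by a thiolase. The shortened acyl-CoA leaves as a carnitine ester or, after a thioesterase has removed coenzyme A, as a free acid. In mouse liver many of these genes respond to PPARalpha, a nuclear receptor activated by fatty acids.

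The albumin gene Alb stood between 30014 and 35981 FPKM, and the 8 hepatocyte markers summed to between 43036 and 54451 FPKM, so the libraries carried the markers of their labelled tissue. Of 7 fat cell markers, Plin1 and Lep were at 0 in all 4 libraries, Adipoq reached at most 0.088 FPKM and Retn at most 1.21, while Fabp4 stood at 66.5 to 143 FPKM, Cidea at 39.7 to 143 and Cfd at 0.115 to 220. From the steps between low FPKM values, depth was estimated at between 9440000 fragments (WD) and 12120000 fragments (WD+7KC). The deposited values summed to between 696062 and 715605 FPKM in CD, CD+7KC and WD, but to 602059 FPKM in WD+7KC. Rescaling all libraries to equal sums moved the all-gene median of log2 fold changes from 0.0021 to 0.21 in WD+7KC relative to WD, and from 0.0026 to 0.20 in WD+7KC relative to CD+7KC. Differences that involve WD+7KC are therefore given on both scales, and ratios of 2 genes within a library do not depend on this choice.

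Several of the genes are close copies of one another, so that a read can fit more than 1 of them. Acot1, Acot2, Acot3, Acot4, Acot5 and Acot6 lie in 1 cluster on chromosome 12 (GRCm38), and Acaa1a and Acaa1b lie on chromosome 9. Over the aligned coding bases Acot1 was 95.2% identical to Acot2, 83.9% to Acot3 and 74.8% to Acot4, and Acaa1a was 96.5% identical to Acaa1b. The longest identical coding run was 273 bases between Acot1 and Acot2 and 327 bases between Acaa1a and Acaa1b, which is longer than the reads of 75 bases. These coding windows of 75 bases are shown because they hold the most differing bases within 1 exon of both genes, 14 for Acot1 and Acot2 and 11 for Acaa1a and Acaa1b, and thus the letters by which such a read can be assigned. Capitals mark the bases that differ within a pair.
Acot1, chr12:84016931-84017005, plus strand: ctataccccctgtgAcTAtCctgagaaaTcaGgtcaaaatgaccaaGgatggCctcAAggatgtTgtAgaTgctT
Acot2, chr12:83992653-83992727, plus strand: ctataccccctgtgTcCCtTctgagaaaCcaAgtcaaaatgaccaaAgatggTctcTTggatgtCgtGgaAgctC
Acaa1a, chr9:119346470-119346544, plus strand: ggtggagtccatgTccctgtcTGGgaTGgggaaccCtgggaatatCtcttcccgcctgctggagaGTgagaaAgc
Acaa1b, chr9:119151840-119151914, minus strand: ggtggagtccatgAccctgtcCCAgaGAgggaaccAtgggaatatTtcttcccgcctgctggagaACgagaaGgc

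As a share of all 75-base stretches of the mRNA, 39.1% of Acot1 occurred in another gene (29.2% in Acot2), 29.0% of Acot4, 27.3% of Acaa1a, 37.0% of Acaa1b, 18.7% of Acot3 and 15.8% of Acot8. Most of the Acot4 share, 27.3% of its stretches, fell in 4732463B04Rik, which is not among the listed symbols. The Acot8 share was with Snx21, and 8.15% of the stretches of Acaa1b were shared with Dlec1. Stretches were matched on either strand and not separated by strand, so these shares can include genes that overlap on opposite strands. For Abcd2, Abcd3, Ehhadh and Hsd17b4 no stretch was shared. How Cufflinks divided shared reads is not given in the sources used here, so values of the Acot cluster and of Acaa1a and Acaa1b are uncertain to that extent.

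Promoters of 8 of the 10 genes were in the RefSeq table (GRCm38.p6), as 250 bases before and 50 bases after the start of the gene. AGGTCANAGGTCA, a strict form of the direct repeat bound by PPARalpha with its partner RXR, was found on either strand in none of the 8, and in 0.0396% of all 32851 promoters. The looser NGGNCANAGGTCA, which includes the strict form, was found in 1 of the 8, Acot4, and in 0.204% of all promoters. CCAAT, a common promoter element, was found in 7 of the 8 and in 37.4% of all promoters. The 120 bases before the start are shown for Acot4, which held the looser repeat, for the close copies Acot1 and Acot2, and for both thiolase genes. The start is that of RefSeq, while the gene coordinates given below are those of GENCODE. For Acaa1a the window therefore lies inside those coordinates, and for Acot1 it overlaps them. Capitals mark NGGNCANAGGTCA in Acot4 and CCAAT in the others, on either strand. Of all promoters, 21.3% held CCAAT and 0.0883% held NGGNCANAGGTCA in this window. A match in letters is a description and shows no binding.
Acot4, chr12:84038259-84038378, plus strand: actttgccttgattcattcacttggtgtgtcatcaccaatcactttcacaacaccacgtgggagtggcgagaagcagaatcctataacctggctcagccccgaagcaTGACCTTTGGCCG
Acot1, chr12:84009382-84009501, plus strand: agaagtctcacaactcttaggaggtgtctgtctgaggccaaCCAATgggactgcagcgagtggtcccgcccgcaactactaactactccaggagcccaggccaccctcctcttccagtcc
Acot2, chr12:83987741-83987860, plus strand: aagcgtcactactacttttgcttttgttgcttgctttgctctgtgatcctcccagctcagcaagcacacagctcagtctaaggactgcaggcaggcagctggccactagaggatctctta
Acaa1a, chr9:119341174-119341293, plus strand: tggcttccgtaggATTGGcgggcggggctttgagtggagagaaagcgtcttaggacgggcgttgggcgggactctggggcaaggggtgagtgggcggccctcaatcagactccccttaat
Acaa1b, chr9:119157094-119157213, minus strand: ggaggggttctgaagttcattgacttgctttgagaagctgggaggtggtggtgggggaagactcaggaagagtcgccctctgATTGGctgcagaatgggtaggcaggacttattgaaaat

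The Acot4 match lay directly before the start, at bases -13 to -1, on the minus strand. The CCAAT match lay at bases -79 to -75 in Acot1, while the printed window of Acot2 held none, its match lying farther out at bases -244 to -240.

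The members spanned a wide range of levels. Acaa1b was the highest, at rank 40 to 45 among all genes of a library, and it made up 66.6% of the summed FPKM of the 10 genes on CD, 68.2% on CD+7KC, 65.2% on WD and 62.8% on WD+7KC. Together the 10 genes made up 0.401% of all FPKM on CD, 0.449% on CD+7KC, 0.375% on WD and 0.365% on WD+7KC. Abcd3, Ehhadh, Hsd17b4 and Acaa1a followed at about 91 to 290 FPKM, the thioesterases at about 9 to 30 FPKM, and Abcd2 was the lowest of the 10 in every library.

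**Figure D1:**
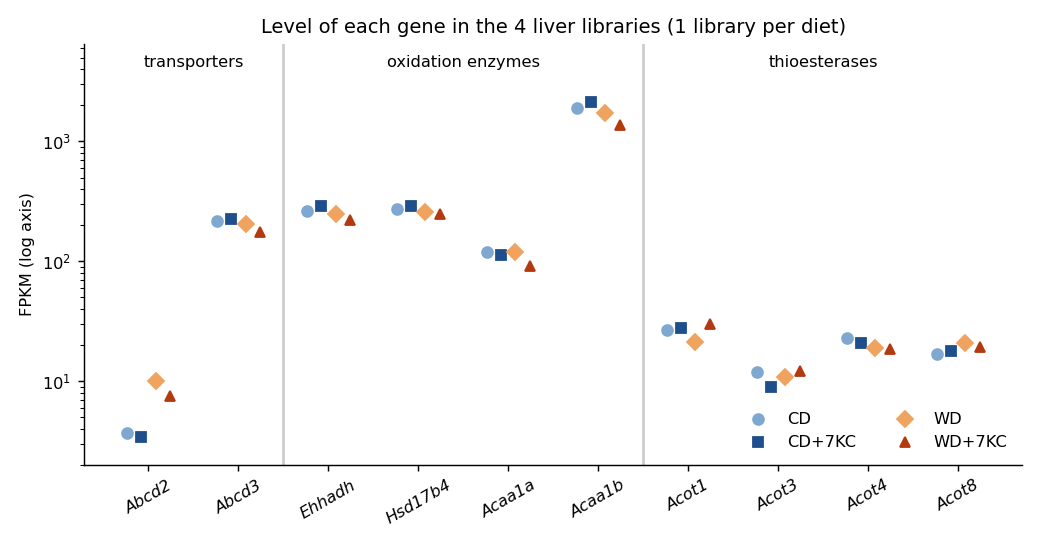
FPKM on a log axis for each of the 10 genes, with 1 point per liver library (CD, CD+7KC, WD and WD+7KC) and no error bars because each group had 1 library. Acaa1b stands between 1379.9 and 2133 FPKM, and Abcd2 stands at 3.70 and 3.40 FPKM in the CD libraries and at 10.1 and 7.48 FPKM in the WD libraries, the widest spread of the 10 genes.

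Abcd2 encodes a peroxisomal membrane transporter subunit that imports very long-chain and polyunsaturated acyl-CoA (chromosome 15, 91145871 to 91191799, minus strand). It measured 3.70 FPKM on CD, 3.40 on CD+7KC, 10.1 on WD and 7.48 on WD+7KC, from an estimated 216, 199, 506 and 483 reads. Both WD libraries were above both CD libraries, an order whose share among all genes was not computed. The log2 fold change was 1.42 in WD relative to CD, with a 95% counting interval of 1.21 to 1.68, and 1.45 after rescaling. In WD+7KC relative to CD+7KC it was 1.11 (0.89 to 1.38), and 1.32 after rescaling. Such intervals cover the counting error between 2 libraries only and not the variation between mice.

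Abcd3, a major protein of the peroxisomal membrane and an importer of dicarboxylic and branched-chain acyl-CoA and of bile acid precursors, showed another pattern (chromosome 3, 121758774 to 121815302, minus strand). It measured 219 FPKM on CD, 225 on CD+7KC, 205 on WD and 175 on WD+7KC. Its highest library was 1.28 times its lowest, against 2.95 times for Abcd2. Within a library, Abcd2 therefore amounted to 1.69% of Abcd3 on CD, 1.51% on CD+7KC, 4.92% on WD and 4.26% on WD+7KC. Relative to Alb, Abcd2 stood at 0.0106%, 0.0109%, 0.0279% and 0.0249% in the same order, so that the WD libraries were the higher ones by this measure too.

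Ehhadh encodes the L-bifunctional enzyme, which hydrates and dehydrogenates enoyl-CoA and is known as a PPARalpha target (chromosome 16, 21761287 to 21787807, minus strand). It measured 264 FPKM on CD, 288 on CD+7KC, 248 on WD and 220 on WD+7KC on the scale deposited, or 250, 281, 240 and 247 after rescaling. WD+7KC was the lowest library as deposited, but WD was the lowest after rescaling. Hsd17b4, on chromosome 18, encodes the D-bifunctional enzyme that handles branched-chain acids and bile acid precursors. It measured 273, 290, 259 and 246 FPKM in the same order. Like Ehhadh, it was highest in CD+7KC on both scales and lowest in WD+7KC as deposited and in WD after rescaling. The ratio of Ehhadh to Hsd17b4 was 0.969 on CD, 0.996 on CD+7KC, 0.957 on WD and 0.893 on WD+7KC.

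Acaa1a and Acaa1b encode the peroxisomal 3-ketoacyl-CoA thiolases A and B, which carry out the last step of the cycle (chromosome 9, 119339676 to 119350299, plus strand, and 119148023 to 119157093, minus strand). Acaa1a measured 119.9 FPKM on CD, 114 on CD+7KC, 119 on WD and 90.9 on WD+7KC. Acaa1b measured 1909, 2133, 1713 and 1379.9 FPKM. Both were lowest in WD+7KC, also after rescaling, and Acaa1b was highest in CD+7KC. The ratio of Acaa1b to Acaa1a was 15.9 on CD, 18.7 on CD+7KC, 14.4 on WD and 15.2 on WD+7KC. Their sum, which depends little on how reads were divided between them, was 2029, 2247, 1832 and 1471 FPKM.

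The thioesterases came next in level. Acot1 encodes the cytosolic long-chain enzyme (chromosome 12, 84009490 to 84018371, plus strand) and measured 26.9 FPKM on CD, 27.6 on CD+7KC, 21.4 on WD and 29.9 on WD+7KC. WD was its lowest library and WD+7KC its highest, on both scales. Acot3, a peroxisomal long-chain enzyme (84052144 to 84060402), measured 11.9, 9.01, 10.8 and 12.1 FPKM, with CD+7KC the lowest.

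Acot4, which in the mouse acts on succinyl-CoA in peroxisomes (84038379 to 84048601), measured 22.8 FPKM on CD, 21.0 on CD+7KC, 18.9 on WD and 18.5 on WD+7KC. Both WD libraries were below both CD libraries as deposited, but after rescaling WD+7KC (20.8) lay above CD+7KC (20.5). Acot8, a peroxisomal enzyme of broad range (chromosome 2, 164792765 to 164804882, minus strand), measured 16.8, 17.9, 20.8 and 19.2 FPKM, with both WD libraries above both CD libraries. The share of all genes whose libraries are set apart by diet was not computed, so this order is a description only. Acot8 rested on an estimated 175 to 222 reads a library, and its log2 fold change in WD relative to CD was 0.30 with a counting interval of 0.0033 to 0.61.

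Acot2, the mitochondrial neighbor and closest copy of Acot1, is not one of the 10 genes but bears on the values of Acot1. It measured 6.10 FPKM on CD, 8.17 on CD+7KC, 16.9 on WD and 19.8 on WD+7KC. The log2 fold change of Acot2 in WD relative to CD was 1.46 (1.18 to 1.78), against -0.33 (-0.56 to -0.11) for Acot1. The ratio of Acot1 to Acot2 was 4.41 on CD, 3.37 on CD+7KC, 1.26 on WD and 1.51 on WD+7KC. The sum of both was 33.0, 35.7, 38.3 and 49.6 FPKM, a log2 difference of 0.22 in WD relative to CD and of 0.37 in WD+7KC relative to WD. Farther along the cluster, Acot5 stood at 0.069 to 0.188 FPKM, which is about 1 to 3 reads, and Acot6 at 0.337 to 0.783 FPKM.

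**Figure D2:**
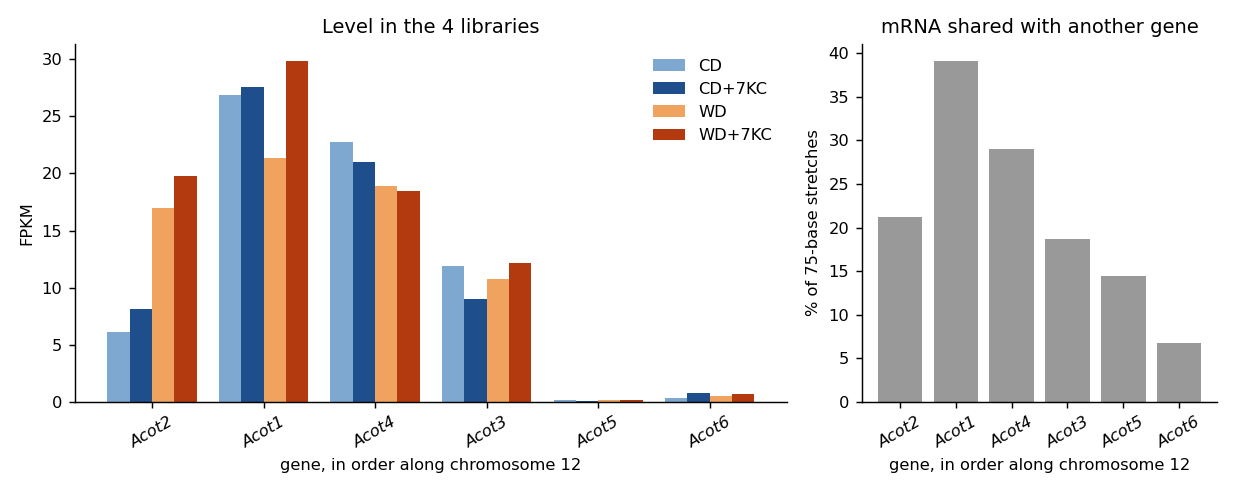
Left, FPKM of the 6 genes of the Acot cluster in their order along chromosome 12, with 1 bar per library; right, the percentage of each mRNA's 75-base stretches that also occur in another gene. The Acot2 bars stand at 6.10 and 8.17 in the CD libraries and at 16.9 and 19.8 in the WD libraries, those of Acot4 stand at 22.8 and 21.0 in the former and lower, at 18.9 and 18.5, in the latter, those of Acot1 and Acot3 overlap between the diets, and Acot1 has the highest shared percentage, 39.1%.

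The first question of the design was what 7KC did under chow. In CD+7KC relative to CD, none of the 10 genes passed 2-fold in either direction, where 3.84% of the 15684 genes compared were above a log2 fold change of 1 and 2.91% below -1. The median of the 10 genes was 0.037, and -0.0012 over all genes. Of the 10 genes, 6 were higher and 4 lower, on both scales. The 95% counting interval lay above 0 for Ehhadh at 0.13 (0.08 to 0.17), Hsd17b4 at 0.087 (0.04 to 0.13) and Acaa1b at 0.16 (0.14 to 0.18), and below 0 for Acot3 at -0.40 (-0.61 to -0.19). After rescaling, the interval of Abcd3 also lay above 0. For this and the other comparisons, the share of all genes with an interval clear of 0 was not computed.

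The second question was what 7KC did under the western type diet. In WD+7KC relative to WD, again none of the 10 genes passed 2-fold, where 6.21% of 15753 genes were above 1 and 2.79% below -1, or 8.72% and 2.21% after rescaling. As deposited, 8 of 10 genes were lower in WD+7KC with a median of -0.14, but after rescaling 4 of 10 were lower with a median of 0.071. Ehhadh, Hsd17b4, Acot4 and Acot8 changed sign between these 2 scales. With upper quartile scaling 7 of 10 were lower with a median of -0.098, and with median-ratio scaling 8 of 10 with -0.14. Over all genes the median was 0.0021 as deposited, and over the 4657 genes whose mean reached 10 FPKM it was -0.12. Rescaling moved these medians to 0.21 and 0.099. Of the 4657 genes, 72.0% were lower in WD+7KC as deposited, so a majority of lower genes was not particular to the 10.

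The transport and oxidation genes are given apart from the thioesterases here. The 6 transport and oxidation genes ranged from -0.42 (Abcd2) to -0.076 (Hsd17b4) as deposited. All 6 of 6 were lower, beside 72.0% of the genes whose mean reached 10 FPKM, while after rescaling 4 of 6 were lower. Abcd2, Acaa1a and Acaa1b kept counting intervals below 0 on both scales, at -0.42, -0.39 and -0.31 as deposited and at -0.21, -0.17 and -0.095 after rescaling. Of the 4 thioesterases, 2 were higher as deposited and 4 of 4 after rescaling. Acot1 had the largest difference of the 10 genes, 0.48 (0.27 to 0.70) as deposited and 0.70 (0.48 to 0.92) after rescaling. Its interval does not cover how reads shared with other genes were divided, and the sum of Acot1 and Acot2 differed by 0.37 as deposited. Acot3 stood at 0.17 (-0.04 to 0.37) as deposited, an interval that includes 0, and at 0.38 (0.18 to 0.59) after rescaling. Within the libraries, the 4 thioesterases together amounted to 29.0% of Ehhadh in WD and 36.3% in WD+7KC, and Acot1 alone to 8.62% and 13.6%.

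The other 2 comparisons set the diets against each other. In WD relative to CD, 1 of 10 genes (Abcd2) was above 1, where 5.31% of 15597 genes were above 1 and 4.38% below -1. None of the 10 was below -1. The median of the 10 genes was -0.095, and 0.0097 over all genes. Without Abcd2, the other 9 ranged from -0.33 (Acot1) to 0.30 (Acot8), and 8 of 9 were lower in WD, or 7 of 9 after rescaling, where Acaa1a changed sign. Of the 4652 genes whose mean reached 10 FPKM, 47.7% were lower in WD as deposited. The counting intervals of Acot1, Acot4, Acaa1b, Ehhadh, Hsd17b4 and Abcd3 lay below 0 as deposited, and that of Acot4 at -0.27 ran from -0.46 to -0.08. After rescaling 5 lay below 0, and that of Hsd17b4 included 0 (-0.090 to 0.0085). The share of all genes with such an interval was not computed. An interval narrows with the number of reads, so small differences of high genes can lie clear of 0.

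In WD+7KC relative to CD+7KC, 1 of 10 genes (Abcd2) was above 1, where 8.01% of 15898 genes were above 1 and 4.61% below -1, or 11.0% and 3.67% after rescaling. None of the 10 was below -1. As deposited 6 of 10 were lower, beside 59.4% of the 4662 genes whose mean reached 10 FPKM. After rescaling 5 of 10 were lower, where Acot4 changed sign. The median of the 10 genes was -0.21 as deposited and -0.0028 after rescaling. Acaa1b had the lowest value, -0.63 (-0.65 to -0.60), or -0.42 after rescaling, followed by Ehhadh at -0.39 or -0.18. Acot3 was higher by 0.42 (0.22 to 0.64), or by 0.63 after rescaling. The 4 comparisons share libraries, so that a value in 1 library enters 2 of them.

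**Figure D3:**
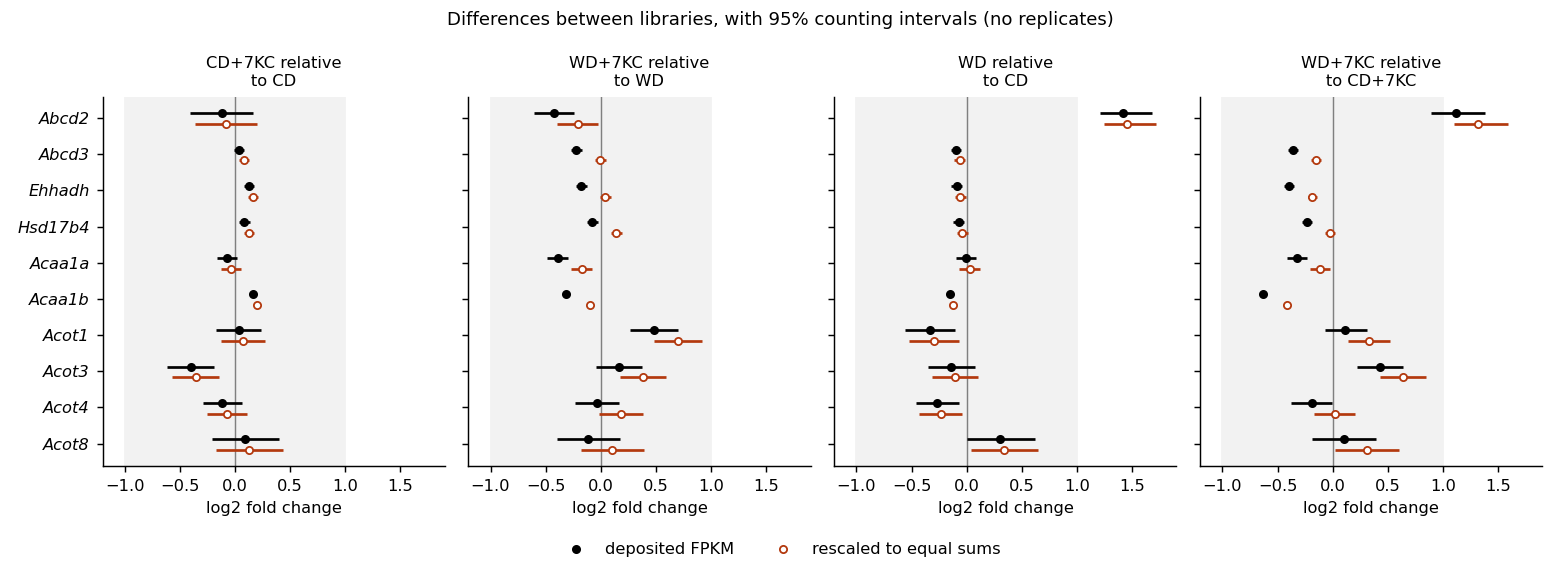
Log2 fold change of each of the 10 genes in the 4 comparisons, as deposited (filled black) and after rescaling the libraries to equal sums (open red), with lines for the 95% counting interval and grey for the range within 2-fold. Abcd2 at 1.42 and 1.11 is the only gene outside the grey range, and in both comparisons with WD+7KC the red points lie to the right of the black ones by about 0.2.

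**Figure D4:**
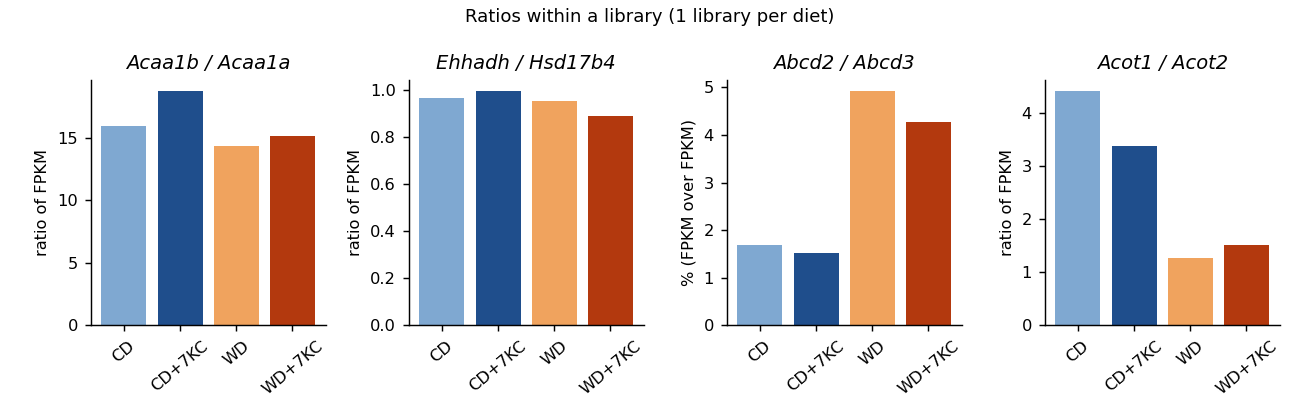
Ratios of the FPKM of 2 genes within a library, with 1 bar for each of the 4 libraries and axes that start at 0. The percentage of Abcd2 over Abcd3 is 1.69 and 1.51 in the CD libraries and 4.92 and 4.26 in the WD libraries, the ratio of Acot1 to Acot2 is 4.41 and 3.37 in the former and 1.26 and 1.51 in the latter, and the other 2 ratios differ by at most 1.30-fold between libraries.

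Markers of other liver cells moved with the groups. The 12 macrophage and Kupffer cell markers were all higher in CD+7KC than in CD, in WD than in CD and in WD+7KC than in either WD or CD+7KC, and summed to 266 FPKM on CD, 403 on CD+7KC, 455 on WD and 858 on WD+7KC. The 5 endothelial markers summed to 45.2, 73.0, 38.0 and 107 FPKM, and all 5 were more than 2-fold higher in WD+7KC than in WD. None of these markers was at 0 in any library. The fat cell list summed to between 155 and 448 FPKM, with Cfd at 220, 63.2, 1.47 and 0.115 FPKM in the order of the groups above. The stellate cell markers summed to between 129 and 161 FPKM, those of cholangiocytes to between 2.42 and 3.78, and those of T, B and NK cells to between 1.30 and 6.49. The 3 red blood cell markers summed to between 104 and 191 FPKM but did not follow 1 pattern between the diets. Hbb-bs, a beta globin, stood at 0.0060 and 0.0059 FPKM in the CD libraries and at 13.5 and 10.4 in the WD libraries. At the estimated depth the CD values of Hbb-bs amount to far less than a whole read, so they are not measured levels. Alas2, of heme synthesis, stood at 86.5 and 81.3 FPKM in the CD libraries and at 30.9 and 23.3 in the WD libraries, and Hba-a1 at 89.8 and 54.5 against 146 and 69.99. The values of Hba-a1 overlapped between the diets. Of the 8 hepatocyte markers, 7 were lower in WD+7KC than in WD as deposited, beside 72.0% of the genes whose mean reached 10 FPKM. After rescaling 5 of the 8 were lower, and the medians were -0.33 as deposited and -0.11 after rescaling. The part of these shifts in the values of the 10 genes was not tested, and in whole liver fewer cells of a type and less RNA per cell cannot be told apart. Relative to Alb, Ehhadh stood at 0.753% on CD, 0.924% on CD+7KC, 0.689% on WD and 0.731% on WD+7KC.

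Other genes of the pathway gave the surroundings of these values. For the counts here and in the lists below, 72.0% of the 4657 genes whose mean reached 10 FPKM were lower in WD+7KC than in WD as deposited. In WD relative to CD, 47.7% of the 4652 such genes were lower. Over all 15597 genes compared there, 50.9% were higher and 5.31% were above 1. Of 24 other genes of peroxisomal oxidation and acyl-CoA handling, 19 were lower in WD+7KC than in WD as deposited and 14 after rescaling, with medians of -0.26 and -0.041, and none passed 2-fold. The lowest was Nudt7, a peroxisomal coenzyme A diphosphatase, with 174 FPKM in WD and 113 in WD+7KC (log2 -0.63, or -0.41 after rescaling). The highest whose mean reached 1 FPKM was Acnat2, an acyl-CoA amino acid N-acyltransferase, with 31.4 and 34.2 FPKM (0.12, or 0.34 after rescaling). In WD relative to CD, 14 of the 24 were lower with a median of -0.052 and again none passed 2-fold. Hacl1, a lyase of alpha-oxidation, stood lowest with 59.5 FPKM in CD and 36.8 in WD. Crat, carnitine acetyltransferase, stood highest with 24.7 and 38.1 FPKM.

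Among 11 other acyl-CoA thioesterases, 9 had a value above 0 in the libraries compared. In WD relative to CD, 8 of 9 were higher with a median of 0.34, and 1, Acot2, was above 1, beside 1 of 4 higher among the thioesterases described here. Acot11 was the lowest of them, with 5.47 FPKM in CD and 3.24 in WD. In WD+7KC relative to WD, 6 of 9 were higher, or 7 of 9 after rescaling, but these include Acot5, whose values rest on about 2 and 3 reads and set the median of the 9 (0.14, or 0.28 after rescaling). Of the 7 whose mean reached 1 FPKM, 4 were higher with a median of 0.022, or 5 with 0.24 after rescaling. In WD relative to CD, 6 of these 7 were higher with a median of 0.34. Acot9, a mitochondrial enzyme, measured 10.1 FPKM in WD and 13.5 in WD+7KC (0.42, or 0.64 after rescaling), and Acot13 measured 198 and 164 FPKM (-0.27, or -0.054 after rescaling).

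Genes that build peroxisomes were listed separately. Of 18 peroxins and peroxisome membrane proteins, 17 were lower in WD+7KC than in WD as deposited but 9 after rescaling, with medians of -0.20 and 0.012, and none passed 2-fold. Pex2, a part of the ubiquitin ligase of protein import, had the lowest value there with 26.6 FPKM in WD and 18.3 in WD+7KC, and Pxmp4 the highest with 43.98 and 44.0 FPKM. In WD relative to CD, 10 of 18 were lower with a median of -0.051. The extremes were Pxmp2, a membrane channel protein, with 125 FPKM in CD and 75.9 in WD, and Pex10 with 2.52 and 3.07 FPKM.

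Of 13 other peroxisomal enzymes, 12 had a value, and 9 of 12 were lower in WD+7KC than in WD as deposited, against 6 of 12 after rescaling. Agxt, which detoxifies glyoxylate, measured 76.2 FPKM on CD, 60.3 on CD+7KC, 46.7 on WD and 26.9 on WD+7KC, and was the lowest of the list both in WD+7KC relative to WD (-0.79, or -0.58 after rescaling) and in WD relative to CD (-0.71). Xdh, xanthine dehydrogenase, was the highest with a mean over 1 FPKM in the first of these comparisons with 19.8 and 26.9 FPKM, and Gnpat, which starts plasmalogen synthesis, in the second with 17.9 and 20.2 FPKM.

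Of 20 other known PPARalpha targets, 16 were lower in WD+7KC than in WD as deposited and 9 after rescaling, with medians of -0.20 and 0.021, and none passed 2-fold. In WD relative to CD, 13 of 20 were higher with a median of 0.29, and 2 were above 1, beside 50.9% and 5.31% of all genes. Of the 10 genes described here 2 were higher, or 3 after rescaling, and this contrast was not tested. Pdk4, a kinase that restrains pyruvate oxidation, was lowest in WD relative to CD with 12.6 FPKM in CD and 7.08 in WD (-0.82), and highest in WD+7KC relative to WD with 10.5 FPKM in WD+7KC (0.56, or 0.78 after rescaling). Cyp4a32 measured 8.65 FPKM in WD and 5.38 in WD+7KC, and Cpt1b 0.917 FPKM in CD and 2.55 in WD.

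**Figure D5:**
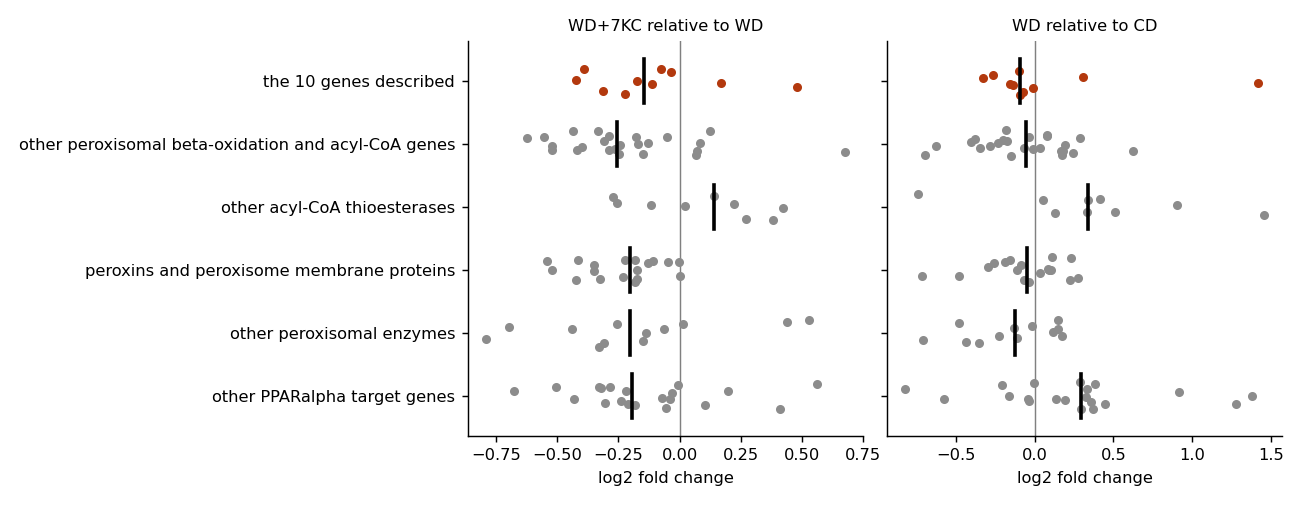
Log2 fold change as deposited in WD+7KC relative to WD (left) and WD relative to CD (right), with 1 point per gene of the 10 genes described (red) and of 5 further lists (grey) and a black line at the median of each list. On the left the medians lie at -0.14 for the 10 genes and between -0.26 and -0.20 for 4 of the lists, and after rescaling at 0.071 and between -0.041 and 0.021; the median of the other thioesterases (0.14, or 0.28 after rescaling) is that of Acot5, with about 2 and 3 reads, and is 0.022 or 0.24 over genes whose mean reached 1 FPKM; on the right Abcd2 at 1.42 stands apart from the other 9 red points.

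The pattern of Ehhadh over the 4 libraries was compared with that of 10685 genes by the root mean square difference of centered log2 values. The closest were Ubxn4, Akr1a1 and Abcb6, at 0.0081, 0.0081 and 0.011, and 1189 genes lay within 0.1. For Acot1 the closest were Cdk19, Dhx34 and Neat1, at 0.010, 0.015 and 0.017, and 262 genes lay within 0.1. With 4 libraries this likeness is a description.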

How the data were processed

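Liver RNA of 4 groups of ob/ob mice was measured with 1 library per group. Per the labels and the study's methods, the authors prepared stranded mRNA libraries, mapped single-end reads of 75 bases to mm10 with TopHat2 2.0.13, Bowtie2 2.2.3 and SAMtools 0.1.19, and deposited FPKM values per gene symbol from Cufflinks 2.2.1. The gene annotation and the Cufflinks options are not given in the sources used here. Pooling and read counts are not either.

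The 10 genes and the lists were chosen with earlier results of these data known. Log2 fold changes were computed on log2(FPKM + 0.1), which understates changes of low genes, for genes not at 0 in both libraries, and the threshold was a log2 fold change of 1. The text names the 10 genes, Acot2, the highest and lowest gene of each list (mean of at least 1 FPKM) in WD+7KC relative to WD and in WD relative to CD, and the 3 nearest patterns of Ehhadh and Acot1. Acot5, Acot6 and the marker genes were named, and the sums of close copies were added, after values were seen. So were the median and the share of lower genes over genes of at least 10 FPKM, and the list medians over genes of at least 1 FPKM. Some genes are not reported here.

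Depth was estimated from genes with a single mRNA (16876), of whose low values 73.3% to 74.7% lay within 0.1 of whole reads, using the mRNA length minus 200 bases. This gives 9.44 to 12.12 reads per kilobase at 1 FPKM. For the genes described, length was counted inside the RefSeq gene bounds. Exact (Clopper-Pearson) 95% intervals cover counting error only. Rescaling set all libraries to equal FPKM sums (TPM). On simulated data 100% of 200 changed genes among 10084 had the right direction in WD+7KC relative to WD, and 95.5% of the intervals covered the true value. The simulation checks the calculation only. It holds no variation between mice and does not test how shared reads were divided. It therefore does not bear on whether the differences of the genes described would recur.

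Transcripts and the printed gene coordinates came from GENCODE vM21 (GRCm38) and promoters from RefSeq. Python 3.11.15, numpy 2.4.6, pandas 2.3.3, scipy 1.17.1, Biopython 1.88 and matplotlib 3.10.9 were used.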

Additional observations from a re-analysis of the deposited data

Results flagged for a closer look

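For 6 of the 10 genes the difference between the library with 7KC and the library without it had opposite signs under the 2 diets as deposited. It was higher under CD and lower under WD for 5 genes and the reverse for 1. Each direction rests on 1 library per group, and the difference between the diets was not tested. The share of all genes with opposite signs was not computed. Of genes whose mean reached 10 FPKM, 53.7% were lower in CD+7KC than in CD and 72.0% in WD+7KC than in WD as deposited. The count is therefore not shown to be particular to the 10 genes. For 3 of the 6 both counting intervals lay clear of 0. Among these, the log2 fold change of 7KC for Acaa1b was 0.16 under CD and -0.31 under WD, a difference of -0.47, and the directions were also opposite after rescaling (0.20 and -0.095). For Ehhadh it was 0.13 and -0.18, a difference of -0.30, and for Hsd17b4 0.087 and -0.076, a difference of -0.16. After rescaling, both directions were upward for Ehhadh (0.17 and 0.041) and for Hsd17b4 (0.13 and 0.14). For the other 3 genes at least 1 interval included 0. Abcd3 stood at 0.040 and -0.22, a difference of -0.26, or at 0.080 and -0.0047 after rescaling. Acot8 stood at 0.090 and -0.11, a difference of -0.20, and both directions were upward after rescaling (0.13 and 0.10). Acot3 was the reverse case, at -0.40 and 0.17, a difference of 0.56, also opposite after rescaling (-0.36 and 0.38).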

How the results depend on the processing

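No paired analysis was possible because each group had 1 library, and for the same reason no library could be left out. The counts of genes past the threshold and the medians were recomputed with pseudocounts of 1 and 0.01 and with none, with a minimum of 1 FPKM, with 4 other scalings and, for the counts, with a 1.5-fold threshold. Of 104 such values, 98 stayed: a count within 1.5 times, or a median with its sign kept and a shift under 0.1. The number of genes above the threshold in WD+7KC relative to CD+7KC was 0 with a pseudocount of 1, since Abcd2 is low, in place of 1. The number below it in the same comparison was 1 (Acaa1b) with a 1.5-fold threshold, in place of 0. The median of the 10 genes in WD+7KC relative to WD was -0.14 as deposited, 0.071 with equal sums and 0.029 with equal sums that leave out the 20 highest genes, and in WD+7KC relative to CD+7KC it was -0.21, -0.0028 and -0.017. With upper quartile and median-ratio scaling it stayed, at -0.098 and -0.14 in the former comparison and at -0.20 and -0.21 in the latter. The all-gene share above the threshold in WD+7KC relative to WD was 6.21%, but 0.889% with a pseudocount of 1 and 12.1% with 0.01. Of 320 values of single genes, 289 stayed inside their counting interval and 31 moved outside it. The sign changed for 4 genes in WD+7KC relative to WD with equal sums and for 3 without the 20 highest genes. It changed for 1 gene (Acot4) with upper quartile scaling and for 0 with median-ratio scaling. Depth limits the lowest genes, so that no difference of Acot5 was detectable.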
